A study of Homo sapiens with 12 samples.

Results

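The expression of 8 transcription factor genes, KLF1, KLF3, NFE2, MYB, BCL11A, ZBTB7A, IKZF1 and SOX6, was followed through blood formation from human ES cells with and without functional GATA2. The genes were taken by name out of the 56266 genes listed per library. RNA-Seq values were analysed for 10 libraries in 5 groups of 2. The groups were undifferentiated GATA2-/- H1 hESCs, WT and GATA2-/- HEs (hemogenic endothelial cells, sorted as CD34+CD31+CD43- at day 8 of co-culture on OP9 stroma), and WT and GATA2-/- HPCs (hematopoietic progenitor cells, sorted as CD34+CD43+ at day 9). All groups derive from H1, an established hESC line, and OP9 is a line of mouse stromal cells. GATA2-/- cells are 1 homozygous clone in which a PGK-neomycin cassette disrupts exon 3 of both GATA2 alleles, so clone and genotype cannot be told apart. WT hESC libraries were not analysed here. Nothing in the labels says that the 2 libraries of a group came from separate cultures, so p-values measure only the spread between these libraries, which may be technical.

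KLF1 activates globin, heme and red cell membrane genes in developing erythroid cells, and KLF3, itself under KLF1 control, binds the same CACCC-type elements and represses. NFE2 is the blood-restricted subunit of a dimer with small MAF proteins that acts in globin and platelet gene expression, and MYB maintains proliferation of definitive blood progenitors. BCL11A and ZBTB7A silence the fetal gamma-globin genes in adult red cells, SOX6 acts with BCL11A at these genes and silences embryonic globin, and IKZF1 (Ikaros) is a zinc finger factor of lymphoid and erythroid development that has been tied to the same switch.

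Expression was given as TPM, which divides reads by transcript length and scales each library to a common total, so levels of different genes can be set side by side. Library sums lay from 998299 to 999106, and 16004 to 17335 genes per library reached a TPM of 1. TPM keeps no read number, so depth is unknown and counting error has no interval here. Changes were tested as log2(TPM + 1) with limma over the 21543 genes that reached a TPM of 1 in at least 2 libraries, in 1 fit of all 10 libraries with Benjamini-Hochberg adjustment, and all 8 genes passed that filter. Adding 1 understates fold changes of low genes. Changes below are on that log2 scale with their standard error (SE), and a gene is said to have risen or fallen only at an adjusted p under 0.05.

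The marker genes of the sorted populations were first compared with the labels. POU5F1, a pluripotency factor, had a TPM of 3332 and 2855 in hESCs and at most 3.02 in the other libraries. CDH5, an endothelial cadherin, had a TPM of 514 and 538 in WT HEs and 614 and 608 in GATA2-/- HEs, against 110 and 53.9 in WT HPCs and 137 and 85.9 in GATA2-/- HPCs. SPN, which encodes CD43, had a TPM of 104 and 108 in WT HPCs and 97.98 and 106 in GATA2-/- HPCs. It was not at 0 in the CD43- cells, with 8.81 and 4.86 in WT HEs and 7.48 and 1.76 in GATA2-/- HEs, and these groups overlapped. PTPRC, the leukocyte gene of CD45, was listed at 0 in all 4 HE libraries but was also low in HPCs (0.98 and 0.92 in WT, 0.68 and 3.09 in GATA2-/-) and in hESCs (0.56 and 3.06), so it does not separate these populations. CD34 had a TPM of 641 and 605 in WT HEs and 1060 and 925 in GATA2-/- HEs. The GATA2 gene itself had a TPM of 107 and 78.0 in WT HEs and 111 and 94.1 in GATA2-/- HEs. In HPCs it was 290 and 204 in WT and 112 and 83.8 in GATA2-/-, without overlap (-1.32, SE 0.36, adjusted p = 0.296 from limma). A disrupted allele can still give an aberrant mRNA, so these values do not check the genotype labels.

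Since the study turns on a GATA factor, the sequences just upstream of the members were searched for GATA cores, the letters AGATAA or TGATAA, or these ending in G, on either strand, in the 250 bases before each start in a RefSeq promoter table (GRCh38.p14). The table held 17 starts of 6 members. It held none of KLF3 and NFE2. A GATA core was present in 22.3% of all 35116 promoters of that length. KLF1 and MYB are shown because their TPM moved together through the stages described below while their upstream sequences differ in this respect. The KLF1 window lies at chr19:12998016-12998265 of GRCh37, where it matched once, on the minus strand, and the MYB window at chr6:135502196-135502445 on the plus strand. Both are printed 5′ to 3′ along the gene up to the base before the start, and capitals mark GATA cores.
KLF1: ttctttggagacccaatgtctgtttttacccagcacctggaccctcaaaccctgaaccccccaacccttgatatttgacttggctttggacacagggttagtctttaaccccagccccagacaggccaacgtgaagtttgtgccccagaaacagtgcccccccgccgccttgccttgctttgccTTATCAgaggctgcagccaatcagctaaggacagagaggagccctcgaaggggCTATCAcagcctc
MYB: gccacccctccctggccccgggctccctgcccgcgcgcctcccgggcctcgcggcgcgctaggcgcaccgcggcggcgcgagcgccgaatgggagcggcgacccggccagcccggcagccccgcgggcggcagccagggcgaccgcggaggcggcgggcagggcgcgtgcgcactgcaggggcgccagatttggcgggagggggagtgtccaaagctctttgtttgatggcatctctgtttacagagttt
KLF1 held TGATAA on the opposite strand from 66 to 61 bases before its start and TGATAG on the opposite strand from 13 to 8 bases before it. MYB held none. The 5 starts of BCL11A and the 2 of ZBTB7A held none, and 3 of the 5 starts of SOX6 held 1 each. Of the 3 starts listed for IKZF1, the first and second held none. The third held 2 copies of AGATAA, but its first base (chr7:50358644 of GRCh37) begins a later exon in 18 GENCODE transcripts and the first exon in 0, so its window is annotated as intron. The CACCC letters, the core of KLF sites, were absent from the KLF1 window, present once in that of MYB and present in 54.7% of all promoters. TGAGTCA, an NFE2-type core, was found at no start of these members and in 4.20% of all promoters. These matches describe letters and not bound sites.

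**Figure D1:**
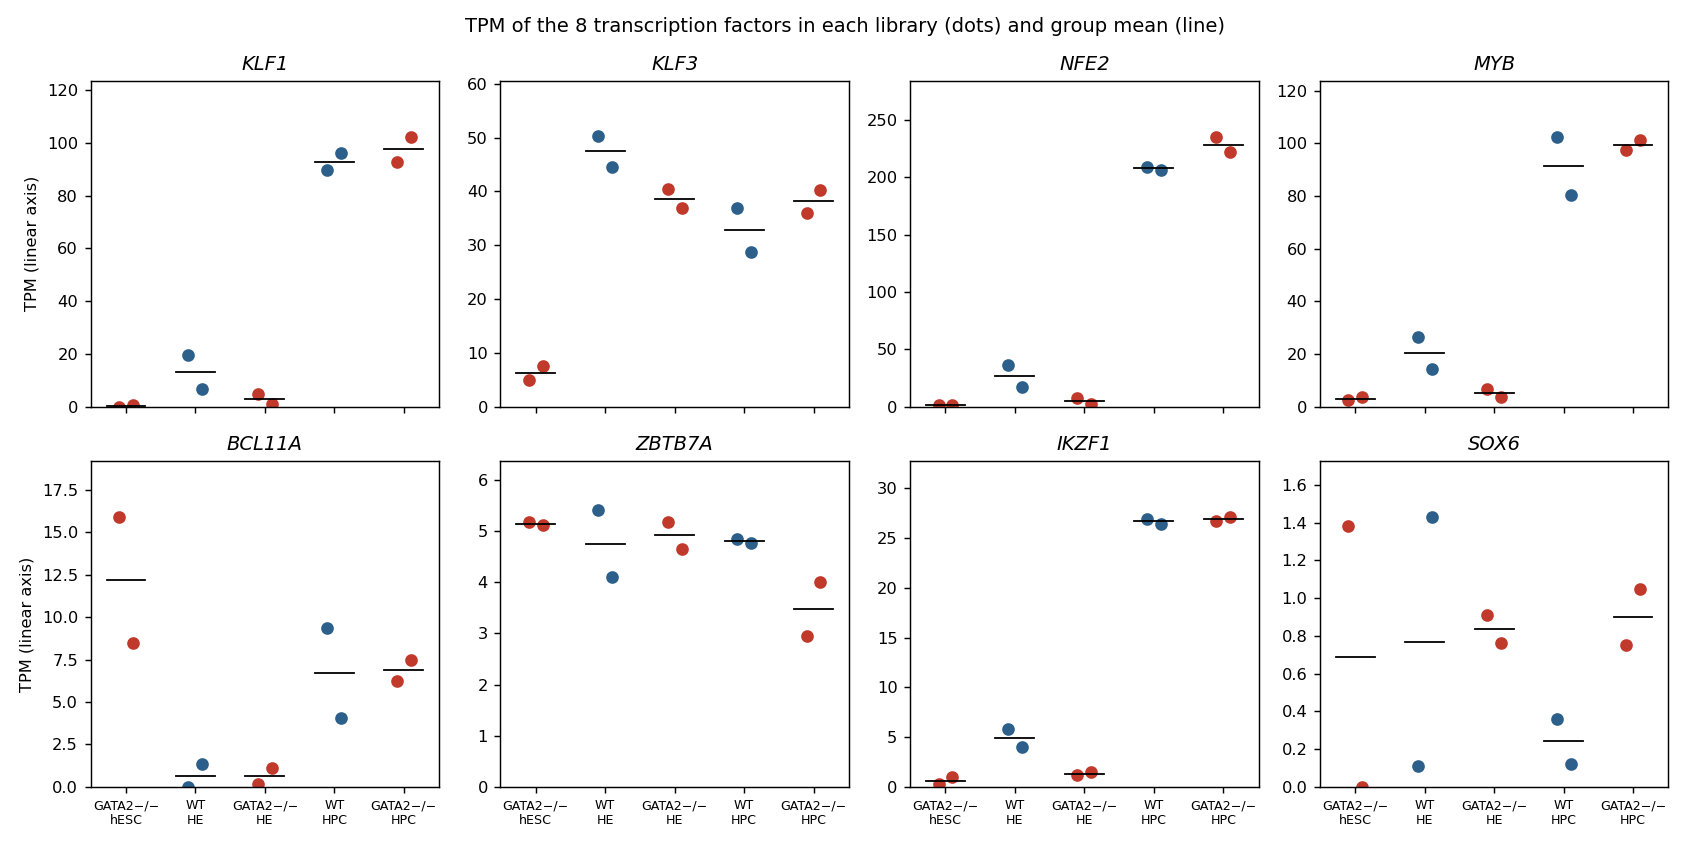
TPM (linear axis, a separate scale per gene) of the 8 transcription factors in each of the 10 libraries, as dots with the group mean as a line, GATA2-/- in red and WT in blue. KLF1, NFE2, MYB and IKZF1 are highest in HPCs of both genotypes, KLF3 is low in hESCs alone, BCL11A is lowest in HEs, and ZBTB7A and SOX6 reach at most 5.42 and 1.43.

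The order of the members by level differed between the stages, and it was resolved better in HPCs than in HEs or hESCs. In HPCs the order by mean TPM began with NFE2, at 208 in WT (SD 1.90, n = 2) and 228 in GATA2-/- (SD 9.52, n = 2). KLF1 and MYB came next in both genotypes and could not be ordered, since their values overlapped. KLF3, IKZF1, BCL11A, ZBTB7A and SOX6 followed in that order in both genotypes, and only BCL11A and ZBTB7A in WT HPCs overlapped with their neighbour. In HEs KLF3 led instead, at 47.5 in WT (SD 4.07, n = 2) and 38.7 in GATA2-/- (SD 2.56, n = 2), without overlap with the next gene. Below it, NFE2, MYB and KLF1 overlapped with their neighbours in WT HEs, as did IKZF1 with ZBTB7A and SOX6 with BCL11A. In GATA2-/- HEs MYB, ZBTB7A, NFE2, KLF1 and IKZF1 formed 1 run of overlapping neighbours, followed by SOX6 and BCL11A, which overlapped with each other. In GATA2-/- hESCs BCL11A led at 12.2 (SD 5.24, n = 2) without overlap, KLF3 overlapped with ZBTB7A, and NFE2, SOX6, IKZF1 and KLF1 at the low end each overlapped with the next. The summed TPM of the 8 genes was 31.4 and 28.2 in GATA2-/- hESCs, 144 and 93.9 in WT HEs, 66.8 and 51.5 in GATA2-/- HEs, 480 and 447 in WT HPCs and 498 and 505 in GATA2-/- HPCs.

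To see which members changed as WT HEs became HPCs, WT HPCs were compared with WT HEs. NFE2, KLF1, BCL11A, IKZF1 and MYB rose, none fell, and KLF3, ZBTB7A and SOX6 did not pass the test. Across all tested genes 9.91% passed in this comparison and 3.32% rose. The median change of the 8 members was 2.20, against -0.01 over all tested genes.
NFE2 went from a TPM of 36.2 and 17.2 in WT HEs to 209 and 206 in WT HPCs. Every HPC library was far above every HE library, and the change was 3.01 (SE 0.47, adjusted p = 0.00475 from limma). KLF1 went from 19.6 and 6.73 to 89.6 and 96.1 (2.89, SE 0.57, adjusted p = 0.0137 from limma). The HE libraries of KLF1 lay far apart and its HPC libraries close together, and the groups did not overlap. MYB went from 26.5 and 14.5 to 103 and 80.4 (2.15, SE 0.34, adjusted p = 0.00495 from limma). IKZF1 went from 5.82 and 4.02 to 27.0 and 26.5 (2.24, SE 0.32, adjusted p = 0.00328 from limma).
The KLF1 call was lost without replicate 2 of WT HEs (adjusted p = 0.0943), without replicate 1 of WT HPCs (0.0594) and without replicate 2 of WT HPCs (0.0809), and with 0.1 instead of 1 added to TPM (0.114). None of the 5 genes passed when only the 4 WT libraries were fitted, where 0 of 21543 genes passed and 4423 had an unadjusted p under 0.05.

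BCL11A, the gamma-globin repressor, also rose from HEs to HPCs but from a level close to 0. WT HEs had a TPM of 0 and 1.32 and WT HPCs 9.38 and 4.03 (2.25, SE 0.56, adjusted p = 0.0388 from limma). In GATA2-/- cells it was 0.19 and 1.13 in HEs and 6.25 and 7.50 in HPCs (2.30, SE 0.56, adjusted p = 0.0294 from limma). The groups did not overlap in either genotype, yet both calls were lost when any 1 of the 4 libraries compared was left out, with adjusted p between 0.0508 and 0.207 in WT and between 0.0633 and 0.154 in GATA2-/-. The WT call was also lost with the replicate number as a block (adjusted p = 0.0531). KLF3 had a TPM of 50.4 and 44.6 in WT HEs and 36.96 and 28.7 in WT HPCs, a change of -0.53 (SE 0.23, adjusted p = 0.224 from limma).

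The same comparison without GATA2 was made between GATA2-/- HPCs and GATA2-/- HEs. The same 5 genes rose, and KLF3, ZBTB7A and SOX6 again did not pass. Here 12.7% of all tested genes passed and 5.50% rose. The median change of the members was 2.95 against 0.03 over all tested genes.
NFE2 went from a TPM of 7.58 and 2.13 to 235 and 222, a change of 5.47 (SE 0.47, adjusted p = 0.000339 from limma). KLF1 went from 4.68 and 0.98 to 92.9 and 102 (4.88, SE 0.57, adjusted p = 0.000971 from limma). MYB went from 6.67 and 3.53 to 97.7 and 101 (4.09, SE 0.34, adjusted p = 0.000304 from limma). IKZF1 went from 1.14 and 1.47 to 26.7 and 27.1 (3.60, SE 0.32, adjusted p = 0.000396 from limma). In each of these 4 genes the TPM in HEs was lower than in WT HEs, and the TPM in HPCs was close to that in WT HPCs. No genotype difference of these genes passed the test at either stage, as given below. KLF3 was at 40.5 and 36.9 in HEs and at 36.0 and 40.3 in HPCs, and these overlapped. Fitting only the 4 GATA2-/- HE and HPC libraries left none of the 5 past the threshold, as in WT.

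**Figure D2:**
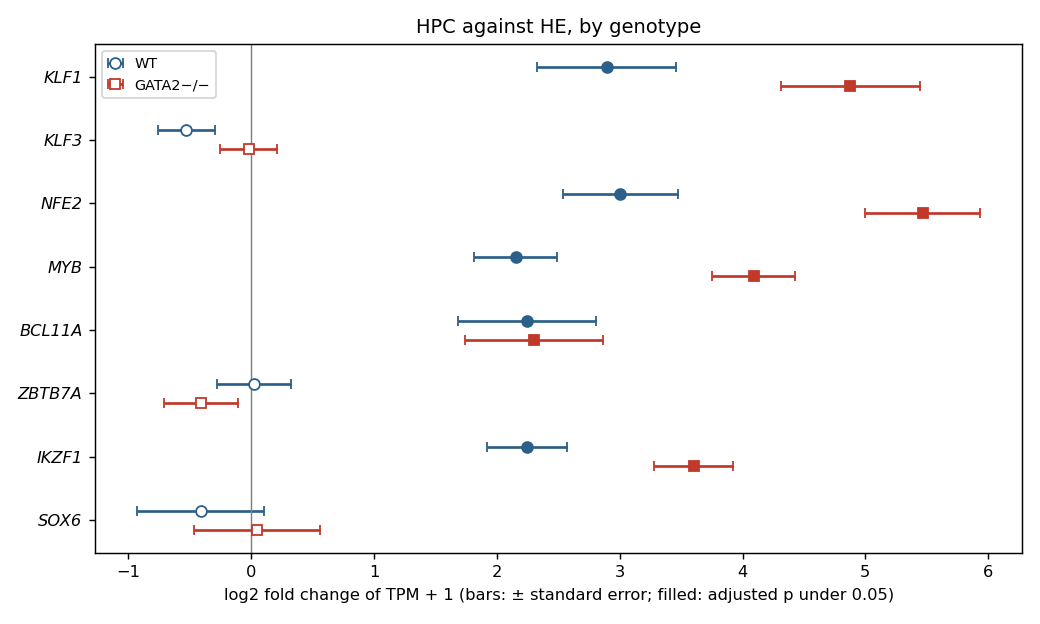
Log2 fold change of TPM + 1 in HPCs against HEs for each of the 8 genes, WT in blue and GATA2-/- in red, with bars of 1 standard error and filled symbols at an adjusted p under 0.05. NFE2, KLF1, MYB and IKZF1 lie further to the right in GATA2-/- (5.47, 4.88, 4.09 and 3.60) than in WT (3.01, 2.89, 2.15 and 2.24), and BCL11A lies at about the same place in both.

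Undifferentiated cells were analysed here in the GATA2-/- genotype alone. The column names of the 2 hESC libraries end in different strings, whose meaning is not given in the sources used here, so they may not be like replicates. The calls of members against hESCs held with either hESC library left out. From GATA2-/- hESCs to GATA2-/- HEs, KLF3 rose and BCL11A fell, while the other 6 members did not pass. Of all tested genes 30% passed, 13.9% upward and 16.1% downward. KLF3 had a TPM of 4.93 and 7.62 in hESCs and 40.5 and 36.9 in HEs (2.47, SE 0.23, adjusted p = 9.54e-05 from limma). BCL11A had a TPM of 15.9 and 8.49 in hESCs against 0.19 and 1.13 in HEs (-2.99, SE 0.56, adjusted p = 0.00412 from limma). BCL11A was thus highest in hESCs, lowest in HEs and intermediate in HPCs, where the change from hESCs was -0.69 (SE 0.56, adjusted p = 0.399 from limma). NFE2 (1.10, SE 0.47) and KLF1 (1.38, SE 0.57) were higher in HEs than in hESCs without overlap, but did not pass. With a library left out, NFE2 ranged from 0.38 to 1.83 (adjusted p from 0.578 to 0.0166 from limma) and KLF1 from 0.62 to 2.14 (adjusted p from 0.506 to 0.0322 from limma), the lowest without replicate 1 and the highest without replicate 2 of GATA2-/- HEs.
From GATA2-/- hESCs to GATA2-/- HPCs, KLF1, NFE2, MYB, IKZF1 and KLF3 rose, against 30.6% of all tested genes that passed and 14.2% that rose. The change was 6.57 for NFE2, 6.26 for KLF1, 4.62 for MYB, 4.15 for IKZF1 and 2.45 for KLF3. KLF1 was at 0 and 0.66 in hESCs and NFE2 at 1.09 and 1.78, so these changes rest on values near the floor of the scale.

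To ask how loss of GATA2 affected the members in the CD43- population, GATA2-/- HEs were compared with WT HEs. KLF1, NFE2, MYB and IKZF1 had the lower values in GATA2-/- HEs, with mean TPM 3.77- to 5.49-fold lower, but 0 of the 8 members passed the test. Few genes of any kind did, with 4 of 21543 (0.0186%). At an unadjusted p under 0.05, 4 of the 8 members were lower and 0 higher, where 2.87% of all tested genes were lower and 1.98% higher.
NFE2 had a TPM of 36.2 and 17.2 in WT HEs and 7.58 and 2.13 in GATA2-/- HEs, a change of -2.33 (SE 0.47, adjusted p = 0.406 from limma). MYB had a TPM of 26.5 and 14.5 against 6.67 and 3.53 (-1.81, SE 0.34, adjusted p = 0.349 from limma). KLF1 had a TPM of 19.6 and 6.73 against 4.68 and 0.98 (-1.91, SE 0.57, adjusted p = 0.784 from limma). IKZF1 had a TPM of 5.82 and 4.02 against 1.14 and 1.47 (-1.35, SE 0.32, adjusted p = 0.530 from limma). In these 4 genes both WT libraries were above both GATA2-/- libraries. The same held for KLF3, at 50.4 and 44.6 against 40.5 and 36.9, though by only -0.29 (SE 0.23). In all, 5 of the 8 members were lower without overlap, as were 16.5% of all tested genes.
The 95% intervals of the change ran from -3.39 to -1.26 for NFE2, from -2.58 to -1.04 for MYB, from -3.20 to -0.63 for KLF1 and from -2.08 to -0.61 for IKZF1, before any adjustment for the number of genes. With any 1 HE library left out, the change ranged from -3.05 to -1.60 for NFE2, from -2.22 to -1.39 for MYB, from -2.67 to -1.15 for KLF1 and from -1.57 to -1.13 for IKZF1. BCL11A, ZBTB7A and SOX6 overlapped between the genotypes in HEs.
Replicate 2 of all 4 HE and HPC groups carries the same added string in its deposited column name, and what it marks is not given in the sources used here. KLF1, NFE2 and MYB were lower in replicate 2 than in replicate 1 of both HE genotypes. Within replicate 1 and within replicate 2, the log2 change in GATA2-/- against WT HEs was -1.86 and -1.96 for KLF1, -2.12 and -2.54 for NFE2, -1.84 and -1.77 for MYB and -1.67 and -1.02 for IKZF1, each from 1 library per genotype and with no test.

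**Figure D3:**
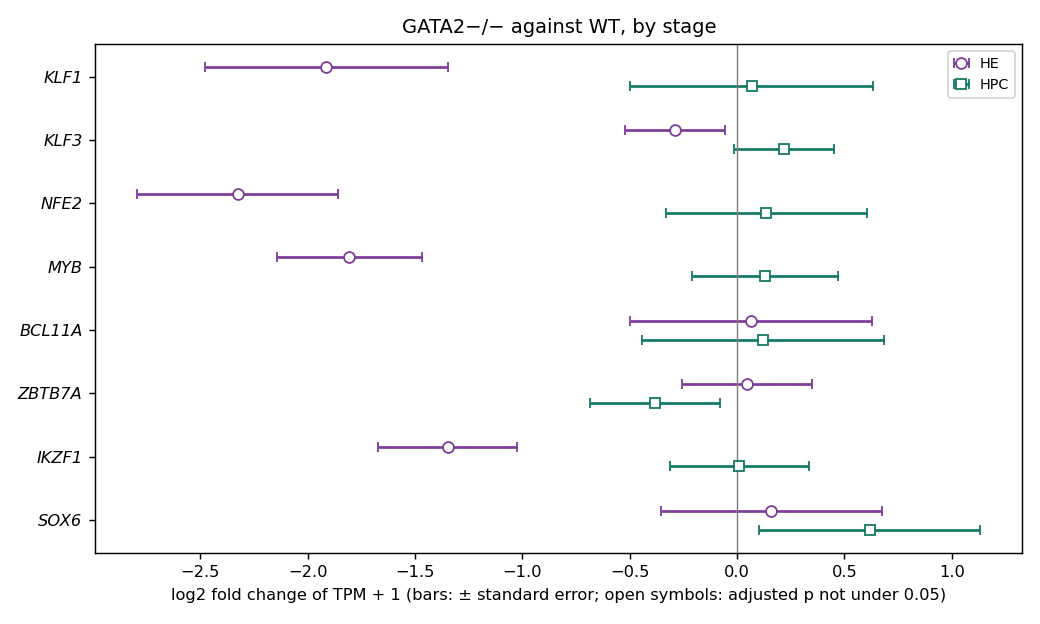
Log2 fold change of TPM + 1 in GATA2-/- against WT for each of the 8 genes, in HEs (circles) and HPCs (squares), with bars of 1 standard error. All symbols are open because 0 of the 8 genes passed at either stage. KLF1, NFE2, MYB and IKZF1 range from -2.33 to -1.35 in HEs, whereas the HPC values are 0.01 to 0.14.

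Erythroid and megakaryocyte genes were examined in the same HE libraries, and 1 of the listed genes passed the test. Lower in GATA2-/- HEs without overlap were 4 of 10 globin genes, 6 of 14 KLF1 target genes and 4 of 10 genes of the GATA1-TAL1 type complexes, where 16.5% of all tested genes were lower and 13.8% higher. Higher without overlap were 0, 0 and 1 of them. GATA1, the partner of KLF1 in erythroid cells and of FOG1 in megakaryocytes, had a TPM of 18.4 and 12.1 in WT HEs and 2.78 and 1.37 in GATA2-/- HEs (-2.41, SE 0.31, adjusted p = 0.0814 from limma). ALAS2, the first enzyme of erythroid heme synthesis, had a TPM of 22.4 and 13.5 against 6.47 and 1.93. ITGB3, the platelet integrin beta-3, had a TPM of 17.6 and 10.2 against 3.87 and 1.08 (-2.18, SE 0.39, adjusted p = 0.322 from limma). PF4, a platelet chemokine, was the only gene of any list that passed, with 37.3 and 32.1 against 3.66 and 4.70 (-2.79, SE 0.27, adjusted p = 0.0249 from limma). With any 1 of the 4 HE libraries left out, no gene passed, so the PF4 call was lost.
As whole lists, the 12 megakaryocyte markers summed to a TPM of 175 and 146 in WT HEs and 92.7 and 59.8 in GATA2-/- HEs, with ITGA2B (69.1, 59.0, 41.2 and 21.5) the most abundant and PPBP listed at 0 in all 4. Of these 12 genes, 7 were lower and 2 higher in GATA2-/- HEs without overlap, beside the same 16.5% and 13.8% of all tested genes. The higher ones were GP1BB, a platelet receptor subunit, at 14.97 and 11.13 against 5.58 and 7.32, and TUBB1, a platelet tubulin, at 0.28 and 0.09 against 0 and 0. The 10 globin genes summed to 55.6 and 47.7 against 20.0 and 21.3. The 15 KLF1 target genes summed to 236 and 212 against 201 and 166, with AHSP and SLC4A1 listed at 0 in all 4 libraries and UROS or BCAM, which other cells also express, on top. The 14 myeloid markers summed to 29.8 and 28.1 against 22.9 and 10.6, led by LYZ, with ELANE, PRTN3 and S100A8 listed at 0. The 15 endothelial markers summed to 5951 and 6277 in WT HEs and 7454 and 6896 in GATA2-/- HEs, with PLVAP (1327 and 1153 against 1815 and 1475) among the abundant ones. Of these 15 genes, 0 passed, 7 were higher and 1 was lower without overlap. The 10 stromal markers summed to 831 and 669 against 742 and 541, which overlapped, and 5 of them were lower and 1 higher without overlap, such as LUM, a collagen-binding proteoglycan, at 22.9 and 13.4 against 4.65 and 5.54. In sorted bulk cells, a smaller number of blood-committed cells in the gate and less RNA of these genes per cell cannot be told apart, and the part of such cells in the values of KLF1, NFE2, MYB and IKZF1 was not tested.

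**Figure D4:**
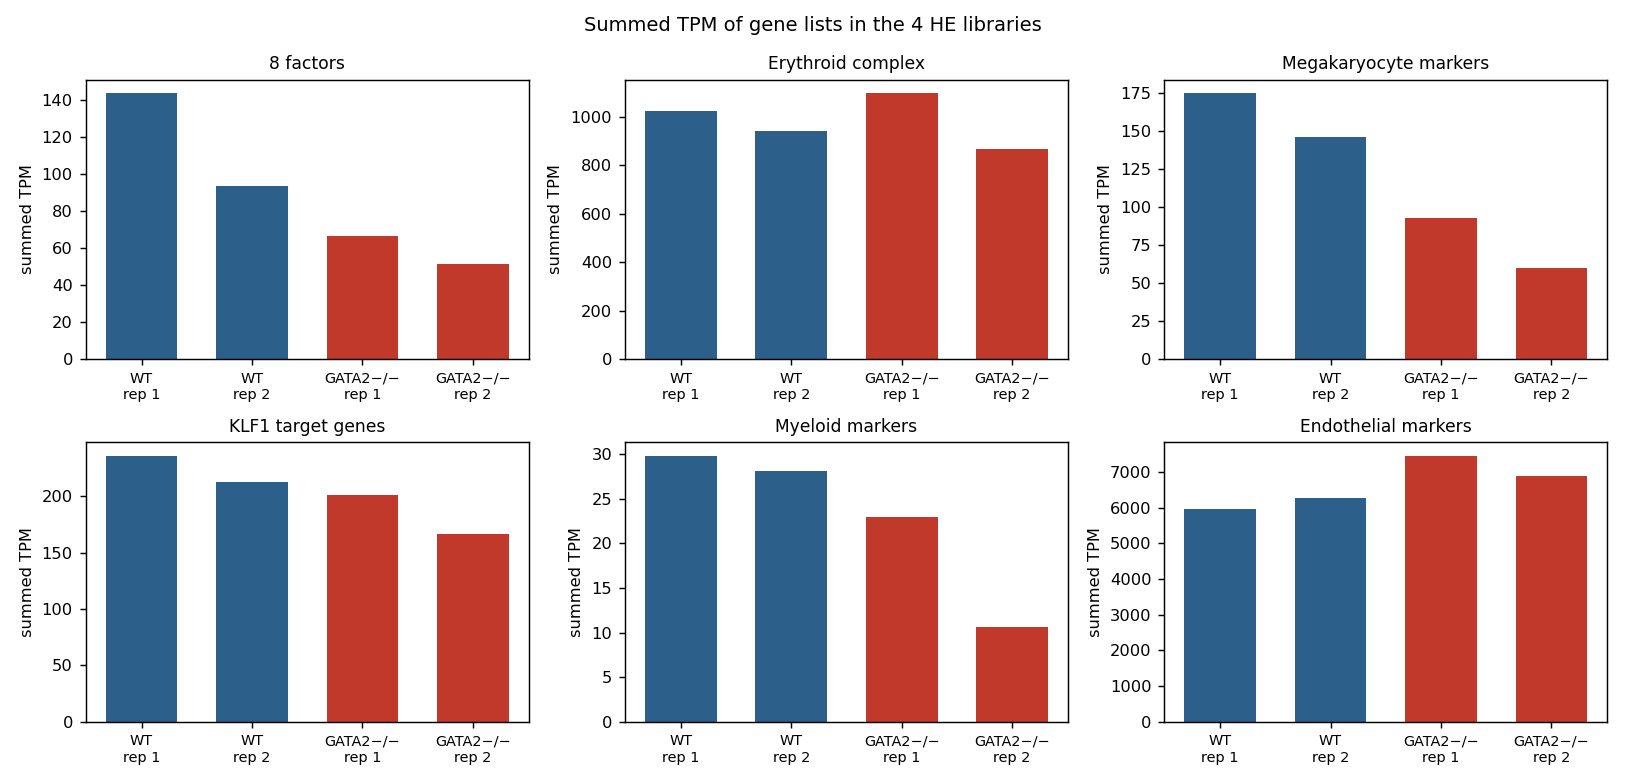
Summed TPM (linear axes from 0) of 6 gene lists in each of the 4 HE libraries, WT in blue and GATA2-/- in red. The 8 factors, the megakaryocyte markers, the KLF1 target genes and the myeloid markers are lower in both GATA2-/- libraries, the endothelial markers are higher in both, and the erythroid complex (943 to 1025 in WT, 866 and 1099 in GATA2-/-) overlaps.

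The level in HEs was also expressed as a percentage of the level in HPCs of the same genotype, which puts genes of different abundance on 1 scale. In WT the mean TPM in HEs was 14.2% of that in HPCs for KLF1, 12.8% for NFE2, 22.4% for MYB and 18.4% for IKZF1. In GATA2-/- cells the percentages were 2.90%, 2.13%, 5.13% and 4.85%. The WT percentage was therefore 4.89 times that in GATA2-/- cells for KLF1, 6.04 times for NFE2, 4.36 times for MYB and 3.80 times for IKZF1. With 1 library left out, chosen as an alternative after seeing the data, this ratio ran from 2.50 to 14.1 for KLF1, from 3.87 to 13.8 for NFE2, from 3.09 to 6.31 for MYB and from 3.10 to 4.49 for IKZF1. The highest value of KLF1, NFE2 and MYB came without replicate 1 of GATA2-/- HEs, and the lowest without replicate 1 of WT HEs for KLF1, MYB and IKZF1 and without replicate 2 of GATA2-/- HEs for NFE2. Beside them stood GATA1 (7.76% in WT, 1.28% in GATA2-/-) and ALAS2 (6.52% and 1.06%). SPN, the CD43 gene that defined the gate, gave 6.44% and 4.53%, a ratio of 1.42 that ran from 0.878 without replicate 2 to 3.73 without replicate 1 of GATA2-/- HEs. BCL11A gave 9.84% and 9.60%, but with 0 in a WT HE library its ratio ran from 0 to 3.56. These percentages are descriptions of 2 libraries per group and were not tested.

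In HPCs, GATA2-/- cells were compared with WT cells at the stage with the highest summed TPM of the members. The 4 genes that were lower in GATA2-/- HEs had nearly equal TPM in the genotypes here, and 0 of the 8 members passed the test, against 13 of 21543 genes (0.0603%). At an unadjusted p under 0.05 there were also 0 members, against 8.94% of all tested genes.
KLF1 had a TPM of 89.6 and 96.1 in WT HPCs and 92.9 and 102 in GATA2-/- HPCs (0.07, 95% interval -1.22 to 1.36). MYB had a TPM of 103 and 80.4 against 97.7 and 101 (0.13, 95% interval -0.64 to 0.90). IKZF1 had a TPM of 27.0 and 26.5 against 26.7 and 27.1 (0.01, 95% interval -0.72 to 0.74). All 3 overlapped between genotypes. NFE2 had a TPM of 209 and 206 against 235 and 222, which did not overlap, with a change of 0.14 (95% interval -0.93 to 1.20). These intervals reach well to either side of 0, so equal levels are not shown.
KLF3 had a TPM of 36.96 and 28.7 in WT HPCs and 36.0 and 40.3 in GATA2-/- HPCs and overlapped. ZBTB7A was the 1 member with lower values in GATA2-/- HPCs without overlap, at 4.84 and 4.77 against 2.96 and 4.01 (-0.38, SE 0.30), as were 13% of all tested genes. SOX6 was higher without overlap, at 0.36 and 0.12 against 0.75 and 1.05, all close to the limit of the scale. Together NFE2 and SOX6 made 2 of 8 members higher without overlap, where 19.7% of all tested genes were. Mitochondrial transcripts took 15.1% and 14.8% of the summed TPM in GATA2-/- HPCs and 8.66% and 9.61% in WT HPCs, which lowers every other value of a GATA2-/- HPC library in proportion.

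Whether the genotype mattered more at the HE stage was tested as the difference between the 2 genotype effects, HPC minus HE. None of the 21543 genes passed (0%), and 1281 (5.95%) had an unadjusted p under 0.05. Of the 8 members, 4 were in that group, all with a positive difference, where 3.95% of all tested genes were in that direction. A positive difference means that the change in GATA2-/- against WT was higher in HPCs than in HEs. The difference was 2.46 for NFE2 (SE 0.66, adjusted p = 0.665 from limma), 1.98 for KLF1 (SE 0.80, adjusted p = 0.808 from limma), 1.94 for MYB (SE 0.48, adjusted p = 0.641 from limma) and 1.36 for IKZF1 (SE 0.46, adjusted p = 0.706 from limma). The same test gave 2.14 for GATA1, with an adjusted p of 0.483 from limma. With 1 library left out, the difference ran from 1.73 to 3.19 for NFE2, from 1.22 to 2.74 for KLF1, from 1.52 to 2.35 for MYB and from 1.14 to 1.58 for IKZF1. This comparison uses the same libraries as both genotype comparisons and both stage comparisons, so it adds no separate evidence to them.

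Of the members linked to globin switching, ZBTB7A and SOX6 were scarce in all libraries, and BCL11A was low beside KLF1 in HPCs. IKZF1, also tied to the switch, was not scarce in HPCs, at 27.0 and 26.5 in WT and 26.7 and 27.1 in GATA2-/-. ZBTB7A kept a TPM between 2.96 and 5.42 in all 10 libraries and passed in 0 comparisons. SOX6 reached at most 1.43 and was at 0 in 1 hESC library. BCL11A in HPCs lay between 4.03 and 9.38, where KLF1 lay between 89.6 and 102. The globin genes of the same HPCs were mainly embryonic and fetal. HBE1 (epsilon-globin) had a TPM of 1496 and 4448 in WT HPCs and 1598 and 4487 in GATA2-/- HPCs, HBG2 (gamma-globin) 1546 and 4176 against 2155 and 4284, and HBB (adult beta-globin) 11.6 and 9.74 against 4.65 and 9.29.
All 10 globin genes rose from HEs to HPCs in both genotypes, where 3.32% of all tested genes rose in WT and 5.50% in GATA2-/-. KLF1 and NFE2 rose too, and whether they act on these globin genes was not tested. Between genotypes 0 of the 10 globin genes passed at either stage, against 0.0186% of all tested genes in HEs and 0.0603% in HPCs. In HPCs replicate 2 was higher than replicate 1 in both genotypes for HBE1, HBG2, HBZ (zeta-globin, 86.8 and 520 in WT, 276 and 872 in GATA2-/-) and HBA1 (1052 and 3460 in WT, 2154 and 4328 in GATA2-/-), while KLF1 was 89.6 and 96.1 in WT and 92.9 and 102 in GATA2-/-. HBG1 and HBG2, and HBA1 and HBA2, are near-identical pairs, so the split of reads within each pair is uncertain. Without overlap, 2 of the 10 globin genes were lower and 0 higher in GATA2-/- HPCs, HBB and HBD (delta-globin), where 13% of all tested genes were lower and 19.7% higher. HBD had a TPM of 101 and 170 in WT HPCs and 54.4 and 77.0 in GATA2-/- HPCs (-1.01, 95% interval -1.86 to -0.16, adjusted p = 0.465 from limma). HBQ1 and HBM reached at most 31.9 and 17.9 TPM, and HBG1 and HBA2 at most 477 and 1227.

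Partners and relatives of the members were then examined from lists. Of 15 KLF1 target genes, 14 were tested, and from HEs to HPCs 8 rose in WT (0 fell) while 9 rose and 1 fell in GATA2-/- cells (3.32% and 5.50% of all tested genes rose), with ALAS2 changing by 3.90 and 6.40. In HPCs ALAS2 had a TPM of 241 and 310 in WT and 419 and 372 in GATA2-/-. ICAM4 (2.56 and 3.35) and PKLR, the red cell pyruvate kinase (2.68 and 3.56), rose in both as well. None of the 14 passed between genotypes at either stage, against 0.0186% of all tested genes in HEs and 0.0603% in HPCs. AHSP, the alpha-globin chaperone, was listed at 0 in 3 of the 4 HPC libraries and at 2.96 in the other, and SLC4A1, the band 3 anion exchanger, reached at most 2.76.
In the 10 genes of the GATA1-TAL1 type complexes, 0 passed between genotypes, against 0.0186% of all tested genes in HEs and 0.0603% in HPCs. From HEs to HPCs 6 of the 10 rose in each genotype, beside the same 3.32% and 5.50% of all tested genes. GATA1 (3.62 in WT, 5.76 in GATA2-/-), RUNX1 (1.81 and 3.24), ZFPM1, which encodes the GATA1 cofactor FOG1 (1.85 and 3.01), and CBFA2T3, a corepressor (1.70 and 2.82), were among them. RUNX1 had a TPM of 77.9 and 65.9 in WT HEs and 44.8 and 19.4 in GATA2-/- HEs, a change of -1.25 (SE 0.48, adjusted p = 0.944 from limma). TAL1 and LMO2 were already abundant in HEs, as TAL1 had a TPM of 189 and 157 in WT HEs and 261 and 156 in GATA2-/- HEs and LMO2 198 and 188 against 275 and 238, and neither passed from HEs to HPCs.
Of the 3 small MAF genes, partners of NFE2, MAFG rose from WT HEs to WT HPCs (1.06, SE 0.28, adjusted p = 0.0446 from limma), with a TPM of 12 and 11.8 against 28.6 and 23.7. In GATA2-/- cells MAFG changed by 0.91 and did not pass (adjusted p = 0.0676 from limma). MAFF and MAFK passed in neither. Of the NFE2-like genes, NFE2L1 fell from HEs to HPCs in both genotypes (-1.09 and -1.24), and NFE2L2 and NFE2L3 did not pass.

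Within the KLF family, KLF1 alone of the 15 tested genes rose in WT HPCs against WT HEs, while KLF7, KLF2 and KLF13 fell, where 3.32% of all tested genes rose and 6.59% fell. KLF2, a shear-responsive endothelial factor, had a TPM of 120 and 112 in WT HEs and 35.9 and 31.5 in WT HPCs (-1.76, SE 0.24, adjusted p = 0.00277 from limma). KLF7 changed by -2.68 and KLF13 by -0.83. In GATA2-/- cells KLF15 and KLF9 rose beside KLF1 (2.41 and 1.73), and again KLF7, KLF2 and KLF13 fell (-2.05, -1.71 and -0.83), where 5.50% of all tested genes rose and 7.24% fell. From GATA2-/- hESCs to HEs 8 of the 15 rose, where 13.9% of all tested genes did, KLF3 among them, KLF2 by 6.19 and KLF6 by 2.62, and KLF15 fell (-2.48). KLF1 was the most abundant KLF gene in all 4 HPC libraries and KLF2 or KLF6 in the HEs.
The remaining relatives of the members (16 genes of the IKZF, BCL11, ZBTB7, MYB, NFE2-like, BACH and SOXD families, 15 tested) gave 0 risen and 2 fallen genes from WT HEs to WT HPCs, NFE2L1 and SOX5 (-2.65), beside 3.32% and 6.59% of all tested genes. MYBL2, the relative of MYB in dividing cells, was higher in hESCs (153 and 122) than in HPCs (69.6 and 61.4 in WT, 57.3 and 56.1 in GATA2-/-). IKZF3 was listed at 0 in all 10 libraries. The 22 corepressor genes encode the NuRD, LSD1, CtBP and related subunits used by BCL11A, ZBTB7A, IKZF1 and KLF3. From HEs to HPCs 0 of them passed, against 9.91% of all tested genes in WT and 12.7% in GATA2-/- cells. Between genotypes 0 passed at either stage, against 0.0186% of all tested genes in HEs and 0.0603% in HPCs. Of the 22 genes, 6 fell and 2 rose from GATA2-/- hESCs to HEs, where 16.1% of all tested genes fell and 13.9% rose. MTA3 (-2.05) and CHD3 (2.16) changed by the most.
Of the 12 other genes tied to globin switching, HMGA2 fell from HEs to HPCs in both genotypes, with a TPM of 102 and 90.9 in WT HEs against 27.1 and 22.3 in WT HPCs (-1.93, SE 0.22, adjusted p = 0.00109 from limma) and a change of -2.69 in GATA2-/- cells. NR2C2 (1.18) and EIF2AK1, the heme-regulated kinase (1.16), rose in GATA2-/- cells. Across all tested genes 9.91% passed from HEs to HPCs in WT and 12.7% in GATA2-/- cells. None of the 12 passed between genotypes, against 0.0186% of all tested genes in HEs and 0.0603% in HPCs.

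The genes whose pattern was most like each member were named by the Pearson correlation of log2(TPM + 1) over the 10 libraries, among 11567 genes with a group mean TPM of at least 10. These correlations describe the shared steps between groups, mainly HE to HPC, and carry no p. KLF1, NFE2, MYB and IKZF1 correlated with one another at 0.981 to 0.998. Among the nearest genes were ITGB3 (0.994) for KLF1, FAM65C (0.997) and ITGB3 (0.997) for NFE2, and ITGB3 (0.994) and FAM65C (0.994) for MYB. ITGB3 stood under 2 identifiers in the files, and ENSG00000259207 was used. IKZF1 was nearest to CAPZA2 (0.993), an actin-capping subunit, RGS18 (0.990), a regulator of G-protein signalling in platelets, and GATA1 (0.989). KLF3 was instead nearest to PLAGL1 (0.992), ICAM2 (0.990), an endothelial adhesion gene, and PPFIBP1 (0.988). The nearest genes of BCL11A were GCA (0.951), CMBL (0.950) and POLR1D (0.947), and those of ZBTB7A were COPS7B (0.940), MFSD5 (0.919) and BRAT1 (0.897). SOX6 had no close match, with EMC3 at 0.845, TTC12 at 0.817 and TMEM38B at 0.780, at a TPM of SOX6 itself near 1 or less.

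The members lie on GRCh37 at chromosome 19 from 12995236 to 12998015 (KLF1, minus strand), chromosome 4 from 38665818 to 38703138 (KLF3, plus), chromosome 12 from 54685895 to 54694799 (NFE2, minus), chromosome 6 from 135502446 to 135540311 (MYB, plus), chromosome 2 from 60677655 to 60781602 (BCL11A, minus), chromosome 19 from 4043301 to 4066897 (ZBTB7A, minus), chromosome 7 from 50343664 to 50472799 (IKZF1, plus) and chromosome 11 from 15987995 to 16761138 (SOX6, minus). The library kit does not mark strand, so reads of antisense transcripts that share exons cannot be told apart from those of the gene. KLF3-AS1 shares 265 exonic bases with KLF3 and reached a TPM of 6.20, and MYB-AS1 shares 103 with MYB and reached 2.04, where MYB itself was as low as 3.53 in HEs. An unnamed antisense RNA (ENSG00000285165) shares 110 bases with IKZF1.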

How the data were processed

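RNA-Seq from 10 libraries (5 groups of 2) was used. Short single-end reads of TruSeq libraries came from a MiSeq instrument, and the authors removed adapters (Trimmomatic) before aligning to hg19 (Bowtie). The submitters' processing notes also list RSEM and, beside hg19, the mouse build mm10. How mm10 was used is not given, and mouse reads from the OP9 stroma were not tested for. The methods name Cufflinks for abundance in the differential expression step, but which program gave the deposited TPM is not stated. The deposited values are TPM per gene with 2 decimals. Read depth is unknown. Alignments were not used here, so the Cuffdiff test of the study was not repeated.

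Groups and replicate numbers came from the sample labels. From the deposited TPM, log2(TPM + 1) of genes that reached a TPM of 1 in 2 or more libraries entered limma (version 3.58.1 under R 4.3.3, eBayes with a trend), with 1 variance estimate over all 10 libraries, no block and a Benjamini-Hochberg adjusted p under 0.05. The same script was tested on simulated data with 200 genes changed in GATA2-/- HEs. Of these 185 were called, as were 14 unchanged genes. The changed genes were drawn only from genes abundant in WT HEs. KLF1, MYB and IKZF1 do not reach that level, so the simulation does not cover them. Other values used Python 3.11.15, numpy 2.4.6, pandas 2.3.3 and matplotlib 3.10.9. Positions come from GENCODE v44 lifted to GRCh37, and upstream sequences from RefSeq.

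Members and gene lists were chosen with earlier results of these data known. Named genes were the 8 members, 8 genes that check the labels, all globins, all genes of lists of 3 or fewer, at most 4 genes per other list and comparison with the largest change past the threshold, and the 3 genes most like each member. Some genes that the rule names are not reported here. Genes named beyond this rule (UROS, BCAM, MYBL2, IKZF3, SLC4A1, AHSP, TUBB1, LIN28A, NFE2L2 and other markers listed at 0 or most abundant in their list) were chosen after their values were seen, as were the GATA2-/- against WT HE values of GATA1, ALAS2, ITGB3 and RUNX1, since PF4 alone of the listed genes passed there, and the comparisons in which TAL1, LMO2, GP1BB, LUM and NFE2L3, which the rule names for others, are described. The comparison of HPC genotypes for CSF1R and CSF3R was likewise chosen after their values were seen. Lymphoid, pluripotency and stromal marker lists were also counted. Alternatives were a pseudocount of 0.1, no filter, only the libraries of a comparison, no trend, quantile normalization, rescaling without mitochondrial and globin genes, a replicate block and each replicate left out.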

Additional observations from a re-analysis of the deposited data

Results flagged for a closer look

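NFE2 was the 1 member whose genotype effect pointed in opposite directions at the 2 stages in every library. Both GATA2-/- HE libraries were below both WT HE libraries, and both GATA2-/- HPC libraries were above both WT HPC libraries. The difference of the effects, HPC minus HE, was 2.46 on the log2 scale, and it did not pass the test (adjusted p = 0.665 from limma). The same pattern without overlap was seen in 608 of 21543 tested genes (2.82%). The difference in HPCs alone was 0.14, against -2.33 in HEs.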

How the results depend on the processing

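The rises of NFE2, MYB and IKZF1 from HEs to HPCs kept their direction in both genotypes under every alternative run, and were lost only when the libraries of the comparison were fitted alone, with adjusted p from 0.0793 to 0.112 in WT and from 0.0576 to 0.0607 in GATA2-/- cells. The lower values of KLF1, NFE2, MYB and IKZF1 in GATA2-/- HEs kept their direction and did not pass under any of them. Of the values of single members under alternatives other than leaving out a replicate, 405 kept direction and side, 18 lost and 1 gained a call, and 8 changed sign.

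Genes that passed numbered 4 in GATA2-/- against WT HEs, 12 without trend, 13 without the filter, 0 with only the libraries of the comparison (1467 at an unadjusted p under 0.05), 2 with the replicate block, 0 with the replicate block over HE and HPC libraries only, chosen after seeing the data, and 0 with any replicate left out. In HPCs they numbered 13, 20 without trend, 6 with a pseudocount of 0.1, 0 with only the libraries of the comparison (1613 unadjusted), 3 with the replicate block, 0 with the added block and 0 to 5 with a replicate left out. With only the libraries of the comparison, WT HPCs against HEs went from 2134 to 0, GATA2-/- HPCs against HEs from 2745 to 0 (5040 unadjusted) and GATA2-/- HPCs against hESCs from 6586 to 4386. Leaving out a replicate gave 874 to 1548, 1299 to 1881, 3513 to 5031 and, for GATA2-/- HEs against hESCs (6462), 3466 to 4452, and 0 to 4 for the difference of genotype effects. Members that passed in WT HPCs against HEs went from 5 to 0 with only those libraries, 3 with a pseudocount of 0.1 and 3 to 4 with a replicate left out. In GATA2-/- HPCs against HEs they went from 5 to 0 with only those libraries and to 4 with any replicate left out, and in GATA2-/- HEs against hESCs from 2 to between 2 and 4. The causes were not tested.

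Changes near 0 turned sign. Under quantile normalization these were BCL11A (-0.022) and IKZF1 (-0.056) between HPCs, KLF3 (0.044) and SOX6 (-0.070) in GATA2-/- HPCs against HEs, ZBTB7A (0.041) in GATA2-/- HEs against hESCs and BCL11A (-0.10) for the difference of genotype effects, which was -0.51 with a pseudocount of 0.1. Without mitochondrial and globin genes KLF3 changed by 0.13 in GATA2-/- HPCs against HEs, and the median of all tested genes in GATA2-/- against WT HPCs was 0.14. With a replicate left out, values spanned 0 between HE genotypes for BCL11A (-0.54 to 0.67), ZBTB7A (-0.12 to 0.21) and SOX6 (-0.41 to 0.72), and between HPC genotypes for MYB (-0.044 to 0.30), BCL11A (-0.40 to 0.64) and IKZF1 (-0.0034 to 0.023). They did so in WT HPCs against HEs for ZBTB7A (-0.15 to 0.19) and SOX6 (-0.98 to 0.15), and in GATA2-/- HPCs against HEs for KLF3 (-0.098 to 0.060) and SOX6 (-0.067 to 0.16). Against hESCs they did so for ZBTB7A (-0.12 to 0.0094) and SOX6 (-0.38 to 0.87) in HEs and SOX6 (-0.33 to 0.92) in HPCs. For the difference of genotype effects they did so for BCL11A (-0.55 to 0.66) and SOX6 (-0.11 to 1.02).

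No label says that replicate numbers pair the samples, and they were not treated as paired. The string shared by replicate 2 of the HE and HPC groups has no stated meaning, and whether it marks a common batch was not tested. Differences between replicates correlated at 0.123 between the HE groups, 0.0551 between the HPC groups and -0.0141 to 0.0317 in other pairs. The replicate block ended the BCL11A call in WT HPCs against HEs (adjusted p = 0.0531) and no other call of a member.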

Other observations

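Among lymphoid markers, CD7 had a TPM of 21.7 and 28.4 in WT HPCs and 22.4 and 34.1 in GATA2-/- HPCs, against 2.58 and 3.27 in WT HEs and 2.51 and 1.11 in GATA2-/- HEs. It was the 1 gene of 8 tested lymphoid markers that rose from HEs to HPCs in each genotype, where 3.32% of all tested genes rose in WT and 5.50% in GATA2-/- cells. DNTT and MS4A1 were listed at 0 in all 10 libraries. Of the 7 tested myeloid markers, 2 rose from HEs to HPCs in WT and 3 in GATA2-/- cells, beside the same shares of all genes, while ELANE and S100A8 were listed at 0 in all 10 libraries and PRTN3 in all HE and HPC libraries. LYZ had a TPM of 45.5 and 55.6 in WT HPCs and 56.4 and 59.9 in GATA2-/- HPCs. It was the 1 tested myeloid marker higher in GATA2-/- HPCs without overlap, and 2 were lower. These were CSF1R (40.4 and 34.1 against 9.70 and 27.5) and CSF3R (26.97 and 26.7 against 9.89 and 21.1). None of the 7 passed between HPC genotypes, and 19.7% of all tested genes were higher and 13% lower without overlap. All 8 pluripotency markers fell from GATA2-/- hESCs to GATA2-/- HEs, where 16.1% of all tested genes fell. LIN28A had a TPM of 611 and 665 in hESCs and 207 and 154 in GATA2-/- HEs (-1.83, SE 0.27, adjusted p = 0.00123 from limma), and 244 and 194 in WT HEs. The 10 stromal markers summed to a TPM of 299 and 139 in WT HPCs and 269 and 153 in GATA2-/- HPCs, and these sums overlapped between genotypes.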
